A study of Mus musculus with 6 samples.

Results

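Ribosomal protein genes encode the proteins of the cytosolic ribosome, and their mRNAs were compared between M-MDSCs, the monocytic myeloid-derived suppressor cells, of mTOR-deficient and wild-type mice. The genes were chosen by name (Rpl, Rps, Rplp or Rpsa with the number endings of the family) and by a sum of 60 counts or more over all libraries. This rule used no difference between the groups, but the genes were chosen with earlier results of these data known. Of 34745 genes in the count table, 84 names fit and 81 genes passed, with 49 proteins of the large and 32 of the small subunit. All 81 also passed the filter on low counts, as did 12537 genes in all. The 3 names left out were Rpl10l with 0 counts, Rpl39l with 24 and Rpl3l with 23. The genes just inside the threshold were Rps29 with 143 counts, Rpl23a with 239 and Rps23 with 526.

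The study sequenced RNA of 3 libraries labelled mTOR-KO and 3 labelled WT, all from bone marrow of C57BL/6 mice. The mTOR-KO mice carried mTOR flox/flox and Lyz-Cre, which deletes the floxed gene in cells of the myeloid lineage, so that cells of other lineages still make mTOR. The WT mice were bought C57BL/6 mice and are not described as carrying Cre or the floxed allele, so the transgene and the origin of the mice cannot be told apart from the deletion. The labels speak of freshly sorted cells, whereas the study describes M-MDSCs induced from bone marrow with GM-CSF and IL-6. The study counts its replicates as mice, but no source ties each library to a mouse of its own, so p-values measure the spread between these libraries. Mtor counts did not separate the groups, at 72.0, 75.9 and 69.5 CPM (counts scaled to the size of the library) in the mTOR-KO group and 69.7, 59.8 and 66.2 CPM in the WT libraries (log2 fold change 0.15, edgeR adjusted p = 0.442). Each value covers the whole gene. Reads on the floxed part were not counted apart, so these values do not show whether that part was deleted. The study states that it verified the depletion of mTOR in its MDSCs, without naming the assay there. Its methods list quantitative PCR primers for mTOR, which also measure mRNA. They also list genotyping primers for the mTOR allele and an antibody against mTOR, used on heart sections. Lyz2, the gene at which Lyz-Cre is inserted, did separate the libraries by label, as given with the marker genes. The groups are named by their labels, and directions rest on them.

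A ribosome joins a small subunit, which reads the mRNA, to a large subunit, which forms the peptide bonds. Cells make the proteins of both subunits in matched amounts, and most of their mRNAs begin with a C and a run of pyrimidines, the 5′ terminal oligopyrimidine or TOP motif. The kinase complex mTORC1 controls the translation of TOP mRNAs through LARP1 and the 4E-BP proteins, and their stability through LARP1. Counts of mRNA, as measured here, do not show translation.

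The starts of the genes were read from a RefSeq table on GRCm38.p6 that held 60 of the 81 genes. A C followed by at least 4 pyrimidines, on the strand of the gene and within 3 bases of an annotated start, was found in 25 of these 60 genes (41.7%) and in 13.5% of all 27025 genes of the table. The following windows hold 35 bases before and 15 bases after the annotated start, with the pyrimidine run in capitals. Rps18, Rpl38 and Rpl14 are shown because they were called lower in the mTOR-KO libraries, Rplp2 as a stalk protein, and Rps6 and Rps23 because their fold changes pointed the other way without passing the test.
Rps18, chr17:33955651-33955700, reverse strand: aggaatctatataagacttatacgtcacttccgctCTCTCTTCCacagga
Rpl38, chr11:114668545-114668594, forward strand: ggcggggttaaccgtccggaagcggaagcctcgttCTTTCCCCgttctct
Rpl14, chr9:120571482-120571531, forward strand: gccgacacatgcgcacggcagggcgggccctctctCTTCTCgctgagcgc
Rplp2, chr7:141447616-141447665, forward strand: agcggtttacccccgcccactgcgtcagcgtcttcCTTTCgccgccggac
Rps6, chr4:86857353-86857402, reverse strand: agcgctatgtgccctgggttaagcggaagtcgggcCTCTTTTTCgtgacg
Rps23, chr13:90923087-90923136, forward strand: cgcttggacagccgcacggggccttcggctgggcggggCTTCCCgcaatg
The run therefore stood at or near the start of genes with fold changes of either sign. Rplp0 was in the table without such a run within 3 bases of its start, and Rpl21, Rpl3 and Rpl30 were not in it. Among the other letters searched, on both strands of the 300-base window, CCGGAA was found in 33 of the 60 genes (55.0%) against 16.7% of all genes, and AAGATGG in 10 (16.7%) against 7.28%. TATAAA in the 50 bases before the start was found in 1 of the 60 genes (1.67%) against 3.15% of all. CCGGAA on the opposite strand reads TTCCGG, whose pyrimidines can overlap the run. These matches describe the letters only.

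Per library, the 81 genes together took a smaller share of the counts in the mTOR-KO libraries. They held 2.21%, 2.48% and 1.98% of all counts in mTOR-KO replicates 1, 2 and 3, and 2.72%, 2.60% and 2.85% in the WT replicates. All 3 mTOR-KO libraries lay below all 3 WT libraries. The means were 2.22% ± 0.252 (SD, n = 3) and 2.72% ± 0.122 (SD, n = 3), a difference of -0.501 percentage points, or 18.4% lower. The large subunit genes were 20.0% lower in summed share and the small subunit genes 16.6% lower. No test was made of these sums. In bulk RNA, fewer cells of a type and less RNA per cell cannot be told apart.

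**Figure D1:**
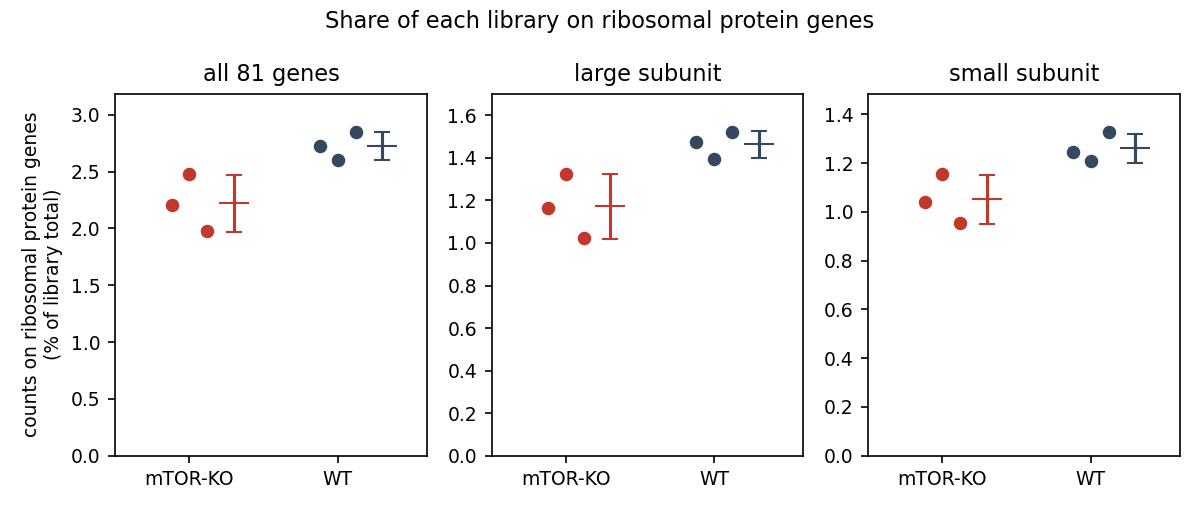
Percent of each library's counts on ribosomal protein genes, for all 81 genes, the large subunit and the small subunit, with 1 point per library and the mean and SD beside the points. For all 81 genes the mTOR-KO libraries lie between 1.98% and 2.48%, below the WT libraries at 2.60% to 2.85%.

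By gene, the differences were small and mostly of one sign. The log2 fold change, mTOR-KO over WT, was below 0 for 66 of the 81 genes (81.5%) and for 49.4% of all tested genes. Its median was -0.23 with quartiles of -0.35 and -0.10, where all tested genes had a median of 0.005. At an adjusted p of 0.05 (edgeR's quasi-likelihood test, Benjamini-Hochberg over all tested genes), 7 genes were lower (8.64%) and 0 were higher, against a background of 4.04% of all tested genes called, 1.87% lower and 2.18% higher. DESeq2, run as an alternative, called 15 of the genes, all lower and with all 7 among them. It also called more genes in all, 1071 of the 17309 with a fold change, where edgeR called 507 of 12537. At an unadjusted p under 0.05, 37 genes (45.7%) were lower and 1 was higher, against 9.52% and 11.7% of all tested genes. The groups did not overlap, with mTOR-KO lower, for 38 genes (46.9%, background 13.9%), and with mTOR-KO higher for 1 gene, Rps23 (background 14.5%). The background of lower genes rises with the count level, so shares by class are given with the count levels. With the 2-fold limit that the study used, 1 gene, Rpl21, was called (background 1.69%, with 0.654% lower and 1.04% higher).

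**Figure D2:**
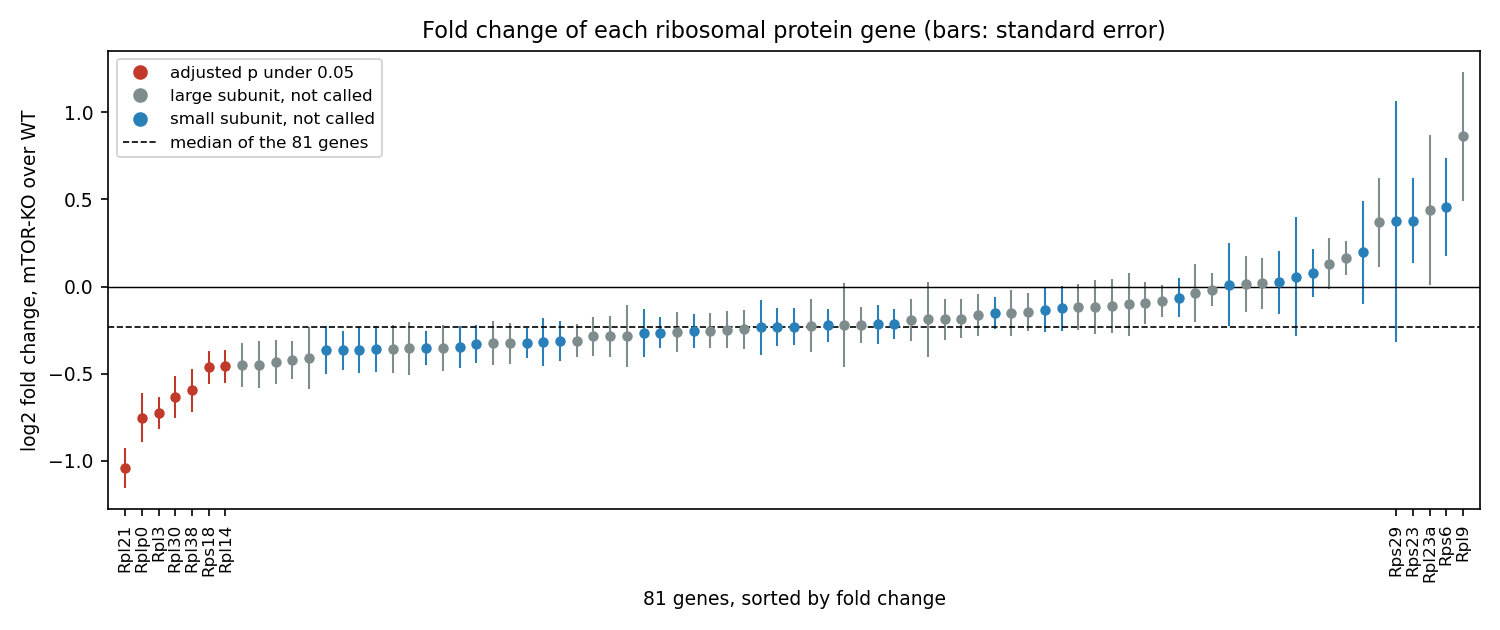
Log2 fold change (mTOR-KO over WT) and its standard error for each of the 81 genes, sorted from lowest to highest and named for the called genes and the 5 highest, with the 7 called genes in red and the dashed line at the median of -0.23. Fold changes run from -1.04 for Rpl21 to 0.86 for Rpl9, and 66 of the 81 points lie below 0.

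The large and the small subunit had nearly the same median, -0.22 over 49 genes and -0.23 over 32 genes. Of the 49 large subunit genes, 42 were lower and 6 of these were called (12.2% of the 49). Of the 32 small subunit genes, 24 were lower and 1 of these was called (3.12% of the 32). Among all tested genes, 49.4% were lower and 1.87% were called lower. Whether the subunits differ was not tested.

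Rpl21 (ENSMUSG00000041453, chromosome 5, 146832890 to 146837032 on mm10), a protein of the large subunit, showed the largest fall. It was at 164, 159 and 128 CPM in the mTOR-KO libraries and at 293, 302 and 335 CPM in the WT libraries. Every mTOR-KO library was well below every WT library, by 2.06-fold in the fit (log2 fold change -1.04, standard error 0.11, edgeR adjusted p = 0.0018). It was called whichever of the 6 libraries was left out. In its principal transcript, 26.2% of the 50-base stretches also occur in transcripts of other genes.

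Rpl3 (ENSMUSG00000060036, chromosome 15, 80077794 to 80091868), which lies close to the peptidyl transferase centre where peptide bonds form, also fell. Its CPM were 182, 212 and 189 in the mTOR-KO libraries and 336, 315 and 313 in the WT libraries, with a wide gap between the groups. The log2 fold change was -0.72 (standard error 0.09, edgeR adjusted p = 0.0037), and it too was called whichever library was left out. Of the 50-base stretches of its principal transcript, 85.6% also occur in transcripts of other genes, so its counts depend on how such reads were assigned.

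The P stalk, which recruits the elongation factors to the ribosome, consists of Rplp0, Rplp1 and Rplp2, and the groups did not overlap for any of the 3 genes. Rplp0 (ENSMUSG00000067274, chromosome 5, 115559467 to 115563727) anchors the stalk and was at 787, 936 and 624 CPM in the mTOR-KO libraries and 1275, 1336 and 1343 CPM in the WT libraries. The fit gave a log2 fold change of -0.75 (standard error 0.14, edgeR adjusted p = 0.0217). With 1 library left out at a time it was called in 2 of 6 fits, and the call was lost when a near-identical pseudogene was added, as described with the pseudogenes. Rplp1 was at 507, 619 and 448 CPM against 706, 679 and 765 CPM (log2 fold change -0.45, edgeR adjusted p = 0.0849). Rplp2 was at 235, 258 and 172 CPM against 273, 258 and 318 CPM (log2 fold change -0.35, edgeR adjusted p = 0.218), and its highest mTOR-KO and lowest WT library nearly touched.

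Rpl30 (ENSMUSG00000058600, chromosome 15, 34440505 to 34443640), a large subunit protein, was called lower. It was at 249, 237 and 196 CPM in the mTOR-KO libraries and 361, 312 and 387 CPM in the WT libraries (log2 fold change -0.64, standard error 0.12, edgeR adjusted p = 0.0219). With 1 library left out at a time it was called in 4 of 6 fits, and 79.2% of its 50-base stretches are shared with other genes.

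The other large subunit genes called were Rpl38 and Rpl14, whose start sequences are printed with the TOP motif. Rpl38 (ENSMUSG00000057322, chromosome 11, 114668524 to 114672331), known in mice for its part in the translation of Hox mRNAs, was at 37.7, 41.1 and 45.3 CPM in the mTOR-KO libraries and 65.0, 55.7 and 66.7 CPM in the WT libraries. Rpl14 (ENSMUSG00000025794, chromosome 9, 120571517 to 120574653) was at 239, 224 and 199 CPM against 310.0, 288 and 312 CPM. Neither gene's groups overlapped. The log2 fold changes were -0.60 (standard error 0.13) and -0.46 (standard error 0.10), both with an adjusted p of 0.033 in edgeR, and each was called in 1 of 6 fits with a library left out.

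Rps18 (ENSMUSG00000008668, chromosome 17, 33951999 to 33956001), a protein of the head of the small subunit, was the small subunit gene called. Its level was 100.2, 101 and 95.3 CPM in the mTOR-KO libraries and 144, 125 and 140.1 CPM in the WT libraries. The mTOR-KO libraries were close together and all below WT (log2 fold change -0.46, standard error 0.09, edgeR adjusted p = 0.030). It was called in 2 of 6 fits with a library left out, and 86.7% of its 50-base stretches are shared with other genes.

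**Figure D3:**
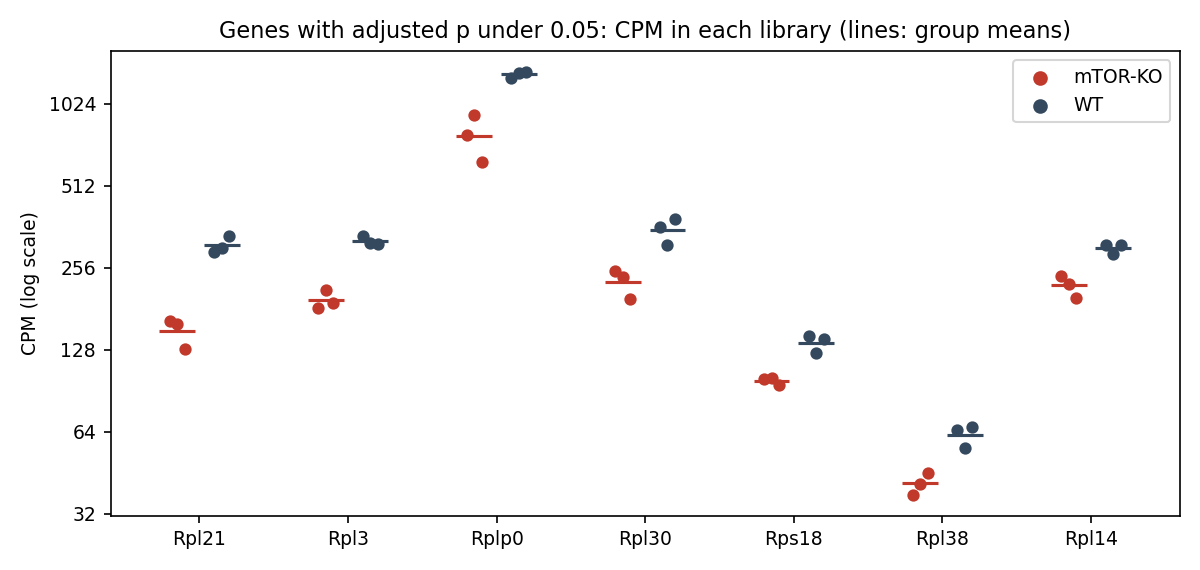
CPM on a log scale in each of the 6 libraries for the 7 genes with an adjusted p under 0.05, with group means as lines. In each gene the 3 mTOR-KO libraries lie below the 3 WT libraries, from Rpl21 at 128 to 164 against 293 to 335 CPM to Rpl14 at 199 to 239 against 288 to 312 CPM.

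The remaining genes are given by their place in the ribosome. Around the exit tunnel, through which the new peptide leaves, Rpl4, Rpl17 and Rpl39 of the wall had a median log2 fold change of -0.16, and 0 were called. Of the 6 genes tested at the ring of the tunnel exit, 5 were lower (median -0.26) and 1, Rpl23a, was higher, with 0 called. Rpl31 was the lowest of this ring, at 103, 128 and 91.8 CPM against 145, 139.6 and 151 CPM (log2 fold change -0.43, edgeR adjusted p = 0.0921). Its groups did not overlap.

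At the path of the mRNA through the small subunit, Rps2 and Rps3 of the entry had a median log2 fold change of -0.25. Of the exit, Rps14, Rps26 and Rps28 had log2 fold changes of -0.12, -0.23 and -0.23. None of these genes was called (edgeR adjusted p from 0.248 to 0.614). Rps3, which shares 2.96% of its 50-base stretches with other genes, was at 1053, 1088 and 960.3 CPM in the mTOR-KO libraries and 1116, 1191 and 1329.9 CPM in the WT libraries. The groups did not overlap for Rps3 (log2 fold change -0.23, edgeR adjusted p = 0.248).

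Rpl5 and Rpl11 form the 5S particle with 5S rRNA and, outside the ribosome, bind Mdm2, which holds p53 in check. Rpl5 was at 59.9, 58.1 and 57.7 CPM in the mTOR-KO libraries and 60.2, 64 and 75.9 CPM in the WT libraries (log2 fold change -0.19, edgeR adjusted p = 0.389). Rpl11 was at 11.5, 11 and 16.8 CPM against 12, 11.1 and 7.26 CPM (log2 fold change 0.37, edgeR adjusted p = 0.441). Neither was called. Of 9 p53 target genes tested, 4 were lower, 5 were higher and 0 were called. Of the 19 genes of the list mutated in Diamond-Blackfan anaemia, an inherited failure of red cell production, 14 were lower (median log2 fold change -0.21) and 0 were called.

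The genes with the highest fold changes were low in counts and variable. Rpl9, a large subunit protein, was at 13.4, 8.80 and 26.6 CPM in the mTOR-KO libraries and 6.89, 9.43 and 10.5 CPM in the WT libraries, so the groups overlapped and replicate 3 stood far above the others (log2 fold change 0.86, standard error 0.37, edgeR adjusted p = 0.223). Rps6, the protein that the S6 kinases phosphorylate downstream of mTORC1, was at 12.6, 10.6 and 18.6 CPM against 6.97, 12.1 and 11.4 CPM (log2 fold change 0.46, edgeR adjusted p = 0.384). The groups overlapped here too. Rpl23a, Rps23 and Rps29 had log2 fold changes of 0.44, 0.38 and 0.38 with standard errors of 0.43, 0.24 and 0.69. In Rps23, a protein of the decoding centre, the groups did not overlap, at 7.42, 6.18 and 8.57 CPM against 5.40, 5.81 and 5.84 CPM (edgeR adjusted p = 0.409).

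The fold change varied with the count level. Of the 16 genes with a mean under 30 CPM, 12 were higher in the mTOR-KO libraries and their median log2 fold change was 0.04. The median was -0.13 in the 15 genes at 30 to 100 CPM, -0.31 in the 22 genes at 100 to 300 CPM and -0.29 in the 28 genes at 300 CPM or more. All 28 of the last class were lower, where 60.4% of all tested genes of that class were, and 1 of them was called (3.57%, against 5.04% of all tested genes of the class called lower). At 100 to 300 CPM, 5 of the 22 genes were called (22.7%, against 3.07%). All tested genes in the same classes had medians of 0.04, -0.006, -0.02 and -0.09. Over the 81 genes, the log2 mean CPM and the log2 fold change had a Pearson r of -0.64 and a Spearman rho of -0.63, a description across genes of the same libraries.

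**Figure D4:**
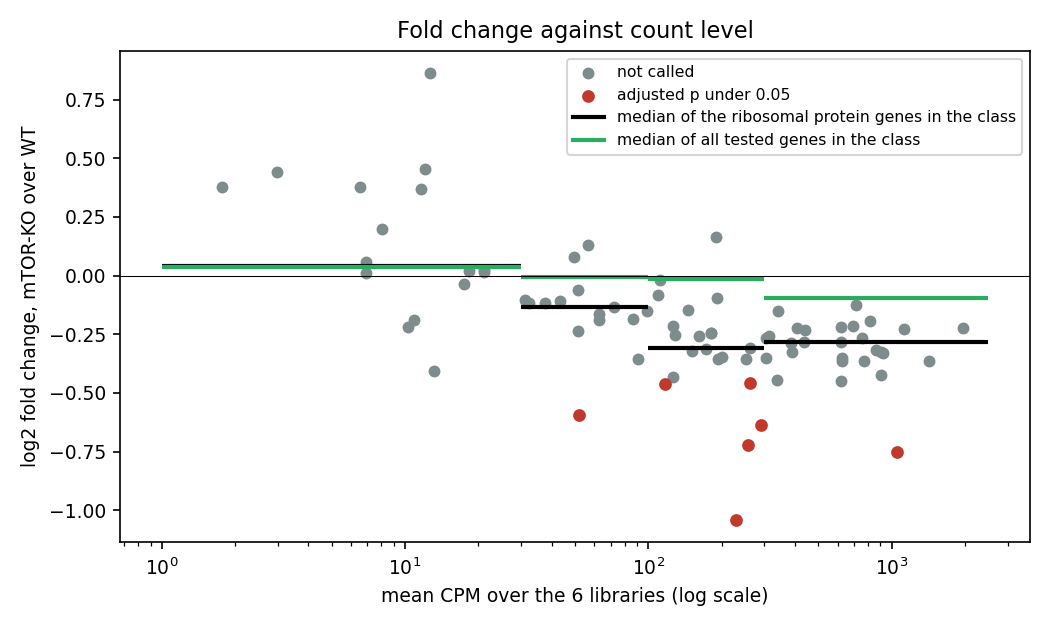
Log2 fold change (mTOR-KO over WT) of each gene against its mean CPM over the 6 libraries (log scale), with called genes in red and the class medians of the 81 genes (black) and of all tested genes (green) as lines. The black line falls from 0.04 under 30 CPM to -0.31 at 100 to 300 CPM, while the green line lies between 0.04 and -0.09.

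The libraries of 1 group were not alike. Against the WT mean, the median gene was at -0.25, -0.13 and -0.40 on the log2 scale in mTOR-KO replicates 1, 2 and 3, and at 0.002, -0.06 and 0.06 in the WT replicates. Replicate 3 of mTOR-KO was the lowest of the 6 libraries for 47 of the 65 genes at 30 CPM or more, and the highest for 8 of the 16 genes below 30 CPM. It also had the fewest genes with a count, 13889, where the other 5 libraries had 14709 to 15120. Without it, the same 7 genes were called, 68 genes were lower and the median was -0.18. Total counts were 12317507 to 12903191 in the mTOR-KO libraries and 14066578 to 14768126 in the WT libraries, and the part of depth in the results was not tested.

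Levels are compared between genes in FPKM, the deposited counts per length and depth. The mean over the 6 libraries ran from 0.959 FPKM for Rps13 to 1378 FPKM for Rpl4, with a median of 51.2 FPKM. Among the 5 highest genes were Rpl4, Rplp1, Rpl8 and Rps26. Rpl4, of the tunnel wall, was at 1281 ± 256 FPKM (SD, n = 3) in the mTOR-KO libraries and 1476 ± 109 FPKM (SD, n = 3) in the WT libraries. Rplp1 was at 1066 ± 177 and 1436 ± 82.4 FPKM (SD, n = 3 each). Rpl8 at 1162 ± 43.3 and Rps26 at 1055 ± 84.2 FPKM in WT (SD, n = 3 each) differed by less than the sum of their SDs. The 5 lowest were Rps13, Rpl9, Rps29, Rpl23a and Rps27, and 16 genes lay under 10 FPKM while 33 lay at 100 FPKM or more. All but Rps29 of these 5 lowest shared over 80% of their 50-base stretches with other genes. Over the 81 genes, the shared percent, up to 98.6% in Rps27, and the log2 mean CPM had a Pearson r of -0.28 and a Spearman rho of -0.28.

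Because of this sharing, genes were also divided by it. Among the 41 genes with under 50% of shared stretches, 38 were lower, 4 were called and the median log2 fold change was -0.25. Among the 40 genes with 50% or more, 28 were lower, 3 were called and the median was -0.20.

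Processed pseudogenes, intronless copies of the mRNAs, are listed with counts of their own in the table. A search with at least 90% identity over 80% of the length found 42 of them, 34 with counts, for 26 of the 81 genes. They held 0.489% ± 0.056 of the counts in the mTOR-KO libraries and 0.540% ± 0.020 in the WT libraries (SD, n = 3 each). Which copy a read came from is uncertain in such pairs. With their counts added to those of the genes, the summed share was 16.9% lower in the mTOR-KO libraries and the median log2 fold change was -0.25.

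Adding the copies changed the result for a few genes. Gm8730 on chromosome 8, 98.7% identical to Rplp0, was at 852, 959.6 and 600.1 CPM in the mTOR-KO libraries and 612, 581 and 633 CPM in the WT libraries (log2 fold change 0.40, edgeR adjusted p = 0.185). The sum of Rplp0 and Gm8730 was no longer called (log2 fold change -0.28, edgeR adjusted p = 0.323). Gm10020 on chromosome 15, 99.7% identical to Rpl15, was at 43.2, 54.3 and 44.4 CPM against 0.853, 0.273 and 0.855 CPM (log2 fold change 6.15, edgeR adjusted p = 3.33e-05), with no overlap between the groups. Rpl15 itself was at 33.2, 34.4 and 22.3 CPM against 35.5, 31.1 and 29.9 CPM (log2 fold change -0.10, edgeR adjusted p = 0.792), and the sum of both was higher in the mTOR-KO libraries (log2 fold change 1.23, edgeR adjusted p = 0.0020).

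In Rpl5, Rpl11, Rpl12, Rpl23a, Rpl27, Rpl39 and Rps7, most counts lay on copies. The log2 fold changes of Rpl12, Rpl39 and Rps7 barely moved, from -0.15, -0.16 and -0.15 alone to -0.15, -0.16 and -0.17 with their copies. Rpl5 with Gm15500 had a log2 fold change of -0.45 (edgeR adjusted p = 0.0808), and Rpl11 with its copies had -0.34 (edgeR adjusted p = 0.0518), where Rpl11 alone had 0.37. Rpl27 changed from 0.02 to -0.30 and Rpl23a from 0.44 to -0.22. Rpl23a alone was at 3.42 ± 1.14 CPM in the mTOR-KO libraries, while its copy Rpl23a-ps3 was at 323 ± 41.9 CPM there (SD, n = 3 each). In all, 6 genes were then called lower and 1, Rpl15, higher. Among the genes of the count table, the search found no copy of Rpl14, Rpl21, Rpl3, Rpl30 or Rpl38, so nothing was added to these called genes. They still share 50-base stretches with transcripts of other genes, 82 for Rpl21, 26 for Rpl3, 17 for Rpl30, 5 for Rpl38 and 1 for Rpl14. Rps18 gained 86 to 132 counts per library. Their calls therefore do not show how shared reads bear on them.

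**Figure D5:**
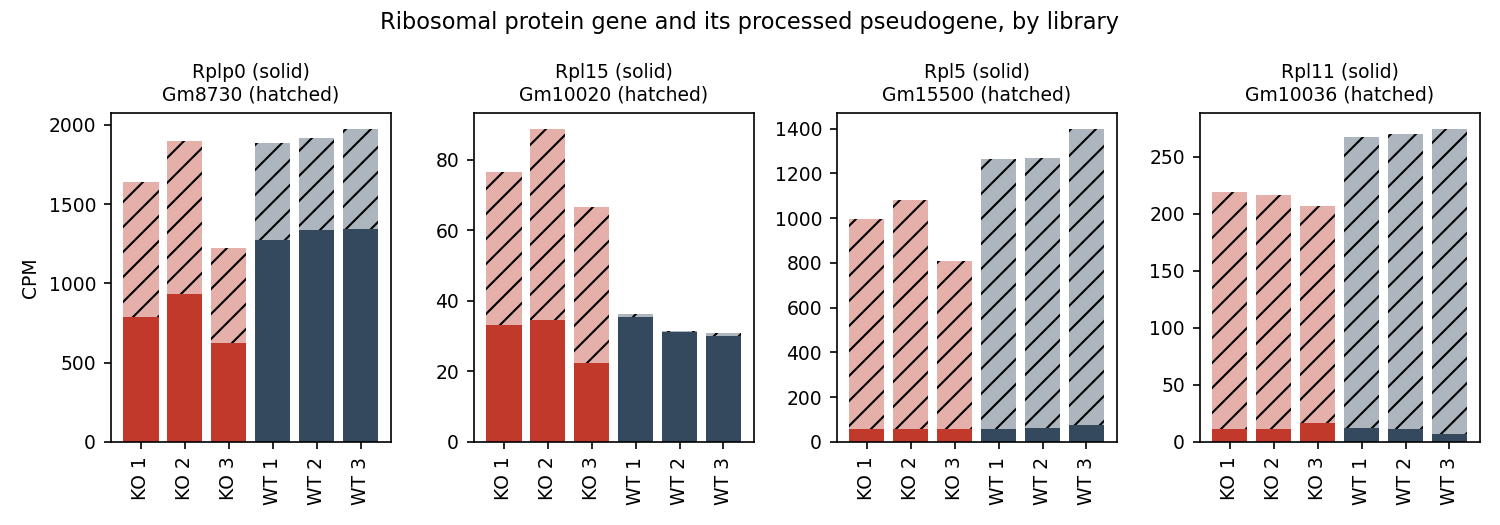
CPM of 4 ribosomal protein genes (solid) and of the main processed pseudogene of each (hatched) in each library, mTOR-KO (KO) in red and WT in grey. The hatched part of Rpl15 is 43.2 to 54.3 CPM in mTOR-KO and under 1 CPM in WT, and that of Rplp0 makes up much of the mTOR-KO total.

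Some ribosomal proteins have a paralog that can take their place, and the ratio of the pair within a library does not depend on its scaling. The ratio still depends on how shared reads were assigned. The shared percent of 50-base stretches was 65.6% in Rpl22l1 and 5.19% in Rpl22, and 22.4% in Rps27l and 98.6% in Rps27. It was 24.9% in Rpl36al and 85.5% in Rpl36a, and 9.19% in Rpl7l1 and 53.3% in Rpl7. Of 7 pairs planned, 4 had enough counts. The log2 ratio of Rpl22l1 to Rpl22 was -1.16, -1.37 and -1.37 in the mTOR-KO libraries and -1.55, -2.0 and -1.60 in the WT libraries. It was higher in all 3 mTOR-KO libraries, by 0.41 (two-sided exact permutation test, p = 0.1, adjusted p = 0.2 over the 4 pairs). With 3 libraries a group this test cannot go below 0.1, and without WT replicate 2 the difference was 0.27. The log2 ratio of Rpl36al to Rpl36a was 1.34, 1.51 and 1.24 against 1.55, 1.55 and 1.71, lower in all 3 mTOR-KO libraries by a difference of -0.24 (two-sided exact permutation test, p = 0.1, adjusted p = 0.2). The ratios of Rps27l to Rps27 and of Rpl7l1 to Rpl7 overlapped between the groups (differences 0.08 and 0.02, two-sided exact permutation test, p = 0.8 and 0.9, adjusted p = 0.9 for both).

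Other genes tied to the ribosome are given for comparison. Of the ribosomal protein genes with other names, 5 were tested and all 5 were lower, and Fau, whose product is cut into Rps30 and a ubiquitin-like protein, was called. Fau was at 231, 239 and 211 CPM in the mTOR-KO libraries and 306, 286 and 321 CPM in the WT libraries (log2 fold change -0.42, standard error 0.09, edgeR adjusted p = 0.0359). Rps3a1, Rps27rt and Gnb2l1, the gene of the ribosomal scaffold Rack1, had log2 fold changes of -0.29, -0.22 and -0.10.

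Among 18 TOP mRNAs of other proteins, 16 were lower, with a median log2 fold change of -0.23, as in the ribosomal protein genes. Nap1l1, a histone chaperone, was called lower, at 298, 268 and 272 CPM against 386, 385 and 395 CPM (log2 fold change -0.48, edgeR adjusted p = 0.0167). Eif4a2, a helicase of translation initiation, was called higher, at 913, 812 and 1097 CPM against 630.5, 706 and 616 CPM (log2 fold change 0.53, edgeR adjusted p = 0.0491). The remaining 16 were not called, among them Eef1a1, the elongation factor that brings tRNA to the ribosome, at 7947, 8811 and 5884 CPM against 9889, 10199.8 and 10670.4 CPM (log2 fold change -0.44, edgeR adjusted p = 0.165). All 6 host genes of snoRNAs with TOP starts were lower, with a median of -0.19 and 0 called. Of the 10 regulators of TOP translation 4 were lower, 6 were higher and 0 were called, and of 9 chaperones of ribosomal proteins 6 were lower and 1, Nap1l1 again, was called.

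The cells were checked against marker genes. Markers of monocytic cells summed to 3205 to 3658 CPM in mTOR-KO and 4630 to 6415 CPM in WT, with 2 of 10 rows called lower, 2 called higher and none at 0 over all libraries. Lyz2, a lysozyme gene, made up most of that difference, at 1024 ± 153 CPM against 3281 ± 840.0 CPM (SD, n = 3 each, edgeR adjusted p = 0.0026). Besides Lyz2, the marker called lower was Ly6c2, at 87.3 ± 15.95 CPM against 174 ± 55.5 CPM (SD, n = 3 each, log2 fold change -0.999, edgeR adjusted p = 0.0426). Ly6c1 was not called (log2 fold change 0.28, edgeR adjusted p = 0.535). The study describes M-MDSCs as high in Ly6C and negative for Ly6G. The median log2 fold change of the list was 0.14, and Csf1r and Cd14 were the markers called higher (log2 fold changes 0.50 and 0.95). Of T and NK cells, Cd3e, Cd4, Cd8a and Ncr1 were at 0 counts in every library, and the list of 6 summed to at most 3.84 CPM. The sums of 4 other lists did not overlap between the groups. Markers of mast cells and basophils summed to 218 to 264 CPM against 834 to 996 CPM (3 of 5 called lower), dendritic markers to 194 to 266 against 68.4 to 158 CPM, with Siglech at 0, B cell markers to 3.32 to 6.93 against 2.27 to 3.21 CPM and erythroid markers to 2.12 to 3.82 against 6.68 to 11.4 CPM. The sums overlapped for proliferation genes, at 544 to 599 against 581 to 782 CPM (1 of 6 called lower). They overlapped for neutrophil markers too, at 2369 to 2698 against 2105 to 2429 CPM. Of these 9 markers, 2 were called lower (Ltf and Ngp) and 2 higher (Ly6g and S100a8). Ly6g was at 13.3 ± 2.31 CPM in mTOR-KO against 2.77 ± 2.13 CPM in WT (SD, n = 3 each, log2 fold change 2.26, edgeR adjusted p = 0.0365). The sums of early granulocyte markers also overlapped, at 86.6 to 132 against 96.8 to 166 CPM, with 1 of 4, Ctsg, called lower. The part of these cells in the ribosomal protein values was not tested.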

How the data were processed

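RNA-seq libraries of 3 mTOR-KO and 3 WT samples were grouped by their labels. The authors deposited raw read counts for each gene, in whole numbers, and FPKM values. Their methods name alignment to mm10 with Bowtie2 and counting with HTSeq, whereas the submitters' processing notes list HISAT2 2.0.4, StringTie 1.3.0, GRCm38.p4 and mm9. Which of these made the counts, and the strand setting, are not given in the sources used here, so genes that overlap may share reads. FPKM served only for levels between genes. A further 24 per-sample columns repeat these values and were not used, nor were the authors' deposited fold changes and p-values.

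Counts were tested with edgeR 4.0.16 (R 4.3.3, limma 3.58.1): filterByExpr (minimum count 10, minimum total 15), TMM factors (0.986 to 1.01), quasi-likelihood F test without a block, Benjamini-Hochberg adjustment over 12537 genes. The common biological coefficient of variation was 19.0%. DESeq2 1.42.0 was an alternative. The procedure was tested on simulated data of 12537 genes: it recovered 67 of 97 genes changed 2-fold and 89 of 96 changed 4-fold, and 16 of its 172 calls (9.3%) were false, above the nominal level. Total counts, 12317507 to 14768126 per library, set the precision. Replicate numbers were checked for pairing: deviations of same-numbered libraries correlated at -0.0875, -0.0531 and -0.0836, so the numbers do not pair them. CPM are TMM-normalized.

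Shared stretches are 50-base windows of the principal GENCODE M21 transcript of a gene, the longest where there are several. They also occur, on either strand, in transcripts of other genes. Paralog ratios used a pseudocount of 0.5. Starts and promoter letters come from RefSeq (GRCm38.p6).

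The ribosomal protein genes and all lists were chosen with earlier results of these data known. Named were the called genes, the 5 genes with the highest and the 5 with the lowest fold changes, the 5 with the highest and the 5 with the lowest FPKM, the paralog pairs, the genes nearest to the count threshold, and called genes whose call depended on 1 library. Examples by role, and pseudogenes, were chosen after their values were seen. Adding pseudogene counts and dividing by shared stretches were chosen after seeing the data. Protein lengths and identities were not analysed here. A few genes of these lists are counted but not reported here by name.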

Additional observations from a re-analysis of the deposited data

How the results depend on the processing

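With RLE, upper-quartile or library-total scaling, TMM factors without the ribosomal protein genes, or 10 counts in every library, the same 7 genes were called. Without a filter, 9 genes were called. DESeq2 called 15 ribosomal protein genes and 1071 genes in all. With the replicate number as a block, 3 ribosomal protein genes (Rpl21, Rpl3 and Rplp0) and 279 genes in all were called. No library correlated best with the library of its own number. The 2-fold limit left 1 and 212 genes. Among genes with under 50% shared stretches, 4 were called. Leaving out 1 library gave 2 to 12 called ribosomal protein genes (3 without mTOR-KO replicate 1, 12 without mTOR-KO replicate 2, 2 without WT replicate 1, 3 without WT replicate 2, 2 without WT replicate 3), 173 to 513 genes in all, and a median log2 fold change of -0.30 to -0.18. Rpl21 and Rpl3 were called in every one of these fits. The summed share kept its direction in all alternatives. Over the 28 named genes and all alternatives, 381 of 419 fold changes kept their direction and side of the threshold, 25 lost the call, 4 gained it and 9 turned. Those that turned were Rpl22l1 (-0.010 without WT replicate 2, range -0.010 to 0.205 over the fits without 1 library), Rps27l (-0.028 without WT replicate 2, range to 0.20), Rps13 (-0.125 without mTOR-KO replicate 3, range to 0.409), Rps29 (-0.626 without mTOR-KO replicate 3, range to 0.801), Rpl23a (-0.217 with pseudogenes added) and Rps27 (-0.0035 without a filter, and -0.031, -0.069 and -0.084 without mTOR-KO replicate 1, mTOR-KO replicate 3 and WT replicate 1, range to 0.110). The difference in log2 ratio lay between -0.103 (without WT replicate 2) and 0.291 for Rps27l to Rps27, and for Rpl7l1 to Rpl7 between -0.051 (without WT replicate 2) and 0.061, with -0.030 without mTOR-KO replicate 3. The causes were not tested. Precision was lowest for Rps29, with 143 counts in all and a standard error of 0.69.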
